A study of Mus musculus with 58 samples.

Results

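The tibialis anterior, a fast limb muscle at the front of the lower leg, was profiled in tumour-bearing and sham-operated mice on 29 of the 58 arrays of the study. The arrays were chosen by their labelled tissue and are compared as PDX, for patient-derived xenograft, against sham. PDX mice were adult female NSG mice, an immunodeficient strain without mature T, B and NK cells, that carried pieces of pancreatic ductal adenocarcinoma from cachectic patients on the pancreas. Sham mice, also adult NSG females, had the operation without a tumour. Mice were killed when the tumour-bearing animals were severely cachectic or a tumour had grown past 3 cm across. Each of 4 cohorts carried the tumour of another patient and had its own sham mice. PDX muscle had 3, 5, 5 and 4 arrays in cohorts 1, 2, 3 and 4, which makes 17, and sham muscle had 3 arrays in every cohort, which makes 12. The diaphragm, the main muscle of breathing, had 29 arrays with the same numbers per cohort and is used here only where the limb muscle is set against it. The model has limits: the host has no mature lymphocytes, 4 donor tumours were used, and the endpoint joins severe wasting with tumour size. The labels do not state that every array is a separate mouse, and p-values here reflect only how far these samples spread, which may be technical.

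Cachexia is the wasting of muscle and fat that accompanies many tumours. In wasting muscle, glucocorticoids and inflammatory cytokines raise genes that slow protein synthesis and feed the ubiquitin-proteasome and autophagy systems, and the transcription factors FoxO, STAT3 and the C/EBP family carry much of that signal. Muscle fibres sit in a connective tissue made by fibroblasts and fibro-adipogenic progenitors, and at their ends join tendon, so a muscle sample also holds RNA of these cells.

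Levels are given as the authors' RMA values, which are log2 signals of a gene's probe set. A difference of 1 on this scale is a doubling. The difference of a gene is PDX minus sham within each cohort, averaged over the 4 cohorts with equal weight, and its standard error (SE) comes from limma. A gene is said to have risen or fallen where limma's Benjamini-Hochberg adjusted p was under 0.05 over all 23185 genes tested. Array medians lay between 3.702 and 3.848, and the median over all probe sets was 3.77. Array maxima lay between 11.84 and 12.24. On arrays, differences of probe sets near the background or near the top of the scale are understated.

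The samples carried the pattern of a fast muscle. The mean level of 9 fast fibre markers (Myh4, Myh1, Ckm, Acta1, Pvalb, Actn3, Mylpf, Tnnt3 and Atp2a1) ran from 11.5 to 11.7 over the PDX arrays and from 11.5 to 11.7 over the sham arrays. Myh7, the myosin of slow fibres, averaged 3.26 in PDX and 3.47 in sham muscle, below the median of all probe sets. All 4 measured B lineage markers and all 4 T and NK cell markers were below that median in both groups. The mean of 8 tendon markers ran from 3.86 to 5.76, with a median of 4.50, over the PDX arrays, against 5.14 to 7.0, with a median of 5.69, over the sham arrays, and 7 of the 8 fell. The mean of 7 fibroblast markers ran from 4.63 to 6.33 in PDX, against 6.46 to 7.07 in sham muscle, with no overlap, and 7 of 7 fell. In whole-muscle RNA, fewer cells of a type and less RNA per cell cannot be told apart, and the part of these cells in the results below was not tested. One array, PDX replicate 1 of cohort 3, stood apart with a median correlation of 0.945 to the other arrays, where the medians of the other 28 lay between 0.970 and 0.985. PDX replicates 2, 3 and 4 of cohort 2 lay close to sham for many of the genes below.

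Promoter sequences of 5 of the genes that rose are shown because of letters they hold in the bases before the RefSeq gene start. These letters were searched as the binding motif of a regulator that the lists below are built around. They are RefSeq promoter windows on GRCm38.p6, written 5′ to 3′ on the strand of the gene, with the matched letters in capitals. Mt2 encodes metallothionein 2, and the window at chr8:94172368-94172617 (plus strand) ends at the base before its start. Capitals mark TGCNCNC on either strand, with any base at each N. It was searched as a loose form of the metal response element, to which the zinc-sensing factor MTF1 binds, so not every match need fit that element.
Mt2: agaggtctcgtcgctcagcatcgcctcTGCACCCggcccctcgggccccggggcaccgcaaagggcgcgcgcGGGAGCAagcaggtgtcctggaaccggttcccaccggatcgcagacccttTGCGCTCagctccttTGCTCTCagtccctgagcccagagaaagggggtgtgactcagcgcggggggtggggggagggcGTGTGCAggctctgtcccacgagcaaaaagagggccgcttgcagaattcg
Glucocorticoid receptor binds a palindrome, searched here as GNACA and TGTNC with any 3 bases between them, a motif that reads the same on both strands. It is capitalised in 100-base windows of Mt1 (chr8:94178951-94179050, plus strand), Sgk1 (chr10:21993658-21993757, plus strand) and Fam107a (chr14:8309842-8309941, minus strand).
Mt1: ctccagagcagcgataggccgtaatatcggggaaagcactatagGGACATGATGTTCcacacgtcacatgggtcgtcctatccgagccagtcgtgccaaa
Sgk1: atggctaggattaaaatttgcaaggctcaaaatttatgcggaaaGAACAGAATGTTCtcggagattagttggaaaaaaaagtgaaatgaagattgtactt
Fam107a: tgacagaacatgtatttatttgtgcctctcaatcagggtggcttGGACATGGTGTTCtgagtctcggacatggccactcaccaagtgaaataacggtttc
The clock proteins CLOCK and BMAL1 bind the E-box CACGTG, capitalised in the window of the clock gene Per1 at chr11:69098736-69098835 (plus strand).
Per1: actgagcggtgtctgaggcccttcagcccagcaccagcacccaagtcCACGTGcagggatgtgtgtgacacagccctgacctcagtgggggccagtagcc
In the 250 bases before the start, 5 matches of the loose form TGCNCNC were found for Mt2. Of 32851 RefSeq promoter windows, 0.344% hold 5 or more, while 44.4% hold at least 1. At least 1 match was found in 16 of 30 windows of the oxidative stress and metal list, and only that of Mt2 held 5. The glucocorticoid palindrome was found in 0.387% of all windows and in 4 of 39 windows of the glucocorticoid targets, which belong to the genes Mt1, Sgk1 and Fam107a. The E-box was found in 6.02% of all windows and in 6 of 26 windows of the clock genes (Bhlhe41, Ciart, Cry1, Per1 and Tef). A match is a description of letters and not a bound site.

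Of the 23185 genes, 2979 passed limma's test (12.8%), with 1465 higher in PDX (6.32%) and 1514 lower (6.53%). A difference of at least 1.5-fold was reached by 182 of the higher genes (0.785% of all tested) and 238 of the lower ones (1.03%). All 4 cohorts had the same sign for 1297 higher and 1351 lower genes (11.4% together). The median difference over all genes was -0.00509. Without PDX replicate 1 of cohort 3, 1691 genes were higher and 1671 lower. Without cohort 1 the counts were 678 and 748, and with the cohort as the replicate, which leaves 4 values, 515 and 607. Counts of list members below are set against the 6.32% and 6.53% of all genes. The lists were drawn up with earlier results of these data known, so their shares are partly fixed in advance. These percentages also cover 11152 weakly measured genes, under 3.77 in PDX and sham muscle alike. When only probe sets above the median were tested, more genes passed out of fewer, 1718 higher and 1705 lower. Well-measured genes therefore passed at a share well above 6.32% or 6.53%. Shares such as 13.9% lower of mitochondrial ribosomal proteins, 13% higher of branched-chain breakdown or 16.1% higher of cytosolic ribosomal proteins do not set a list apart. A range in parentheses gives the count when each cohort in turn was left out. Of the 136 list counts, 26 of those above 0 moved by more than 1.5 times when 1 array was left out. Of these 26, 24 were counts of 5 or fewer, and counts of 0, some of which became 1, were not scored. Lists share genes, so 1 gene can count in several. Mt1 and Mt2 are in the glucocorticoid and oxidative stress lists, and Per1 in the glucocorticoid and clock lists. Ddit4 is in the glucocorticoid and mTORC1 lists, and Lcn2 in the acute-phase, neutrophil and iron lists.

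**Figure D1:**
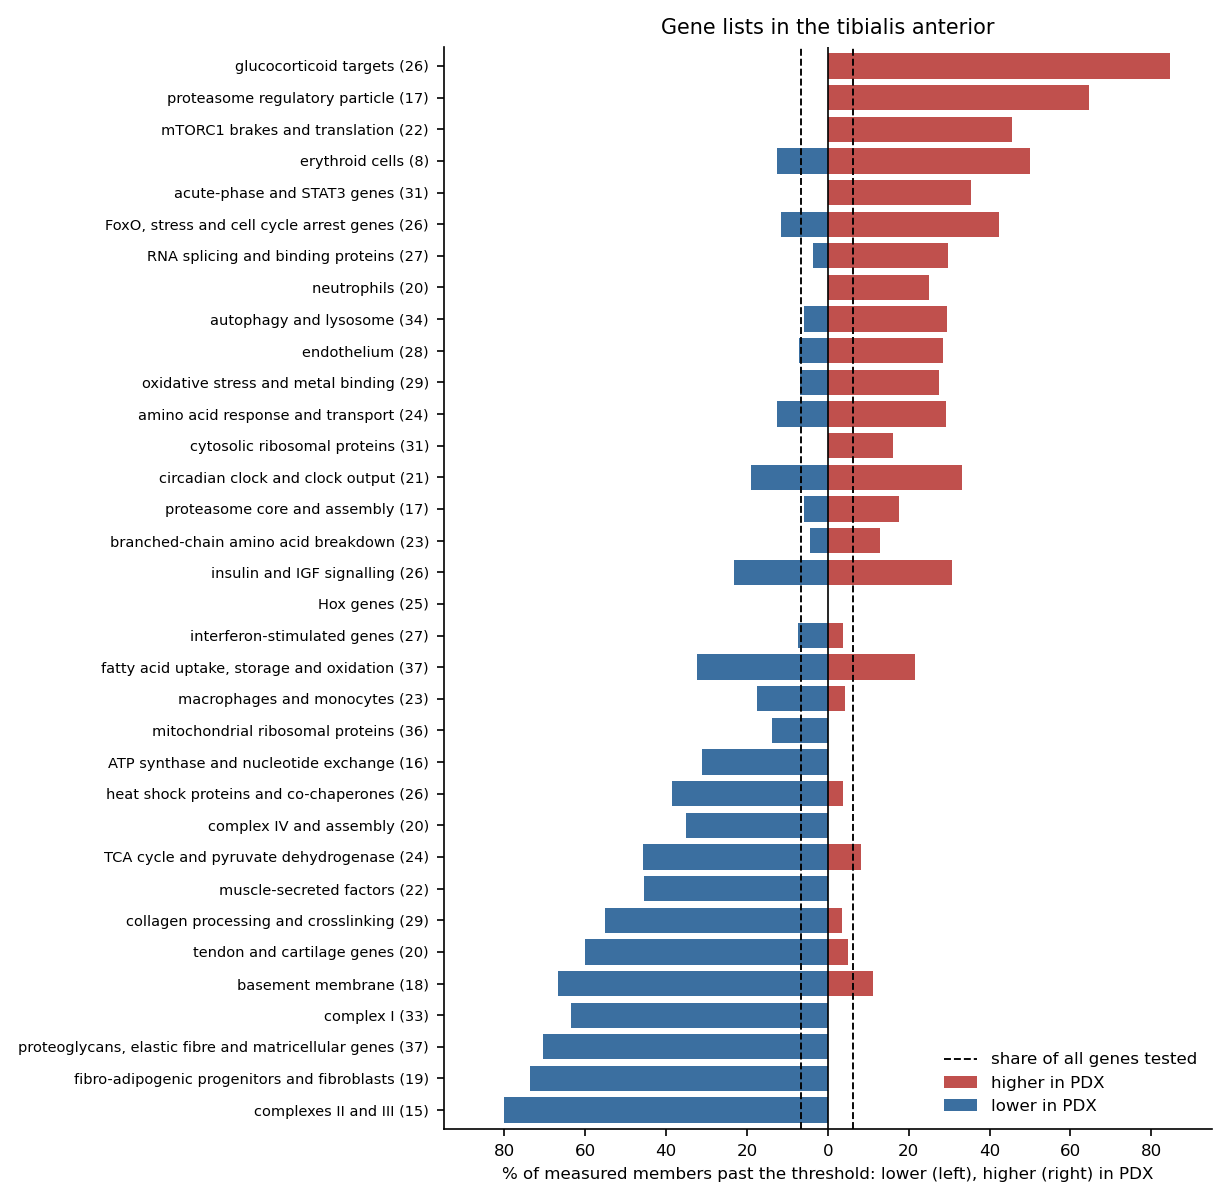
Share of the measured members of 34 gene lists that passed limma's test, higher in PDX to the right and lower in PDX to the left, in percent, with the number measured in parentheses. Dashed lines mark 6.32% and 6.53% of all genes tested. Glucocorticoid targets and the proteasome regulatory particle had the largest shares to the right of the lists plotted, and complexes II and III and fibroblast genes the largest to the left.

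Glucocorticoid target genes rose in the tibialis anterior of PDX mice. Of 26 measured, 22 rose (18 to 22) and 0 fell, with a median difference of 0.726. The largest were the metallothioneins, the co-chaperone Fkbp5 and the growth brake Ddit4. Mt2, a small metal-binding protein, had lowest, median and highest levels of 4.22, 6.81 and 9.29 in PDX muscle, against 3.13, 4.68 and 5.75 in sham muscle. Its 3 lowest PDX arrays were replicates 2, 3 and 4 of cohort 2 and lay within the sham range, and the highest was replicate 1 of cohort 3. Mt2 rose by 2.5 (5.66-fold, SE 0.32, adjusted p = 4.54e-06). Mt1, its neighbour on chromosome 8, rose by 1.75 (3.36-fold, SE 0.22, adjusted p = 4.39e-06), with means of 10.23 in PDX and 8.48 in sham muscle.

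Fkbp5, a co-chaperone of the glucocorticoid receptor that the hormone induces, measured 5.54, 7.37 and 8.59 at its lowest, median and highest in PDX muscle, against 4.33, 5.33 and 6.56 in sham muscle. All PDX arrays of cohorts 1, 3 and 4 were above the sham arrays of their own cohort, and those of cohort 2 overlapped. The cohort differences of Fkbp5 were 1.91, 1.30, 1.96 and 2.27, a narrower spread than for Ddit4 (1.88, 0.67, 3.17 and 1.89). Ddit4, which blocks the growth kinase complex mTORC1, ran from 3.71 to 8.86 with a median of 6.58 in PDX and from 3.69 to 5.49 with a median of 4.60 in sham muscle. It rose 3.73-fold (log2 1.90, SE 0.27, adjusted p = 2.12e-05), with 3 PDX arrays inside the sham range. Arrdc2, an arrestin-domain gene, rose by 1.4 (SE 0.22, adjusted p = 5.88e-05), and Pik3r1, the regulatory subunit of PI3 kinase, by 0.81 (SE 0.11). The genes with a palindrome above, Fam107a and Sgk1, rose by 0.80 (SE 0.12, adjusted p = 3.52e-05) and 0.53 (SE 0.08, adjusted p = 2.90e-05). They were singled out for that window after their values were seen. Errfi1, a brake on EGF receptors, and Pdk4, which shuts off pyruvate dehydrogenase, rose by 0.53 and 0.76. Of the alternative fits (other models, scalings or filters, or without a cohort), 4 lost the call of Errfi1 and 2 that of Pdk4. Both calls were lost when cohort 3 was left out, and that of Pdk4 also without cohort 4.

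**Figure D2:**
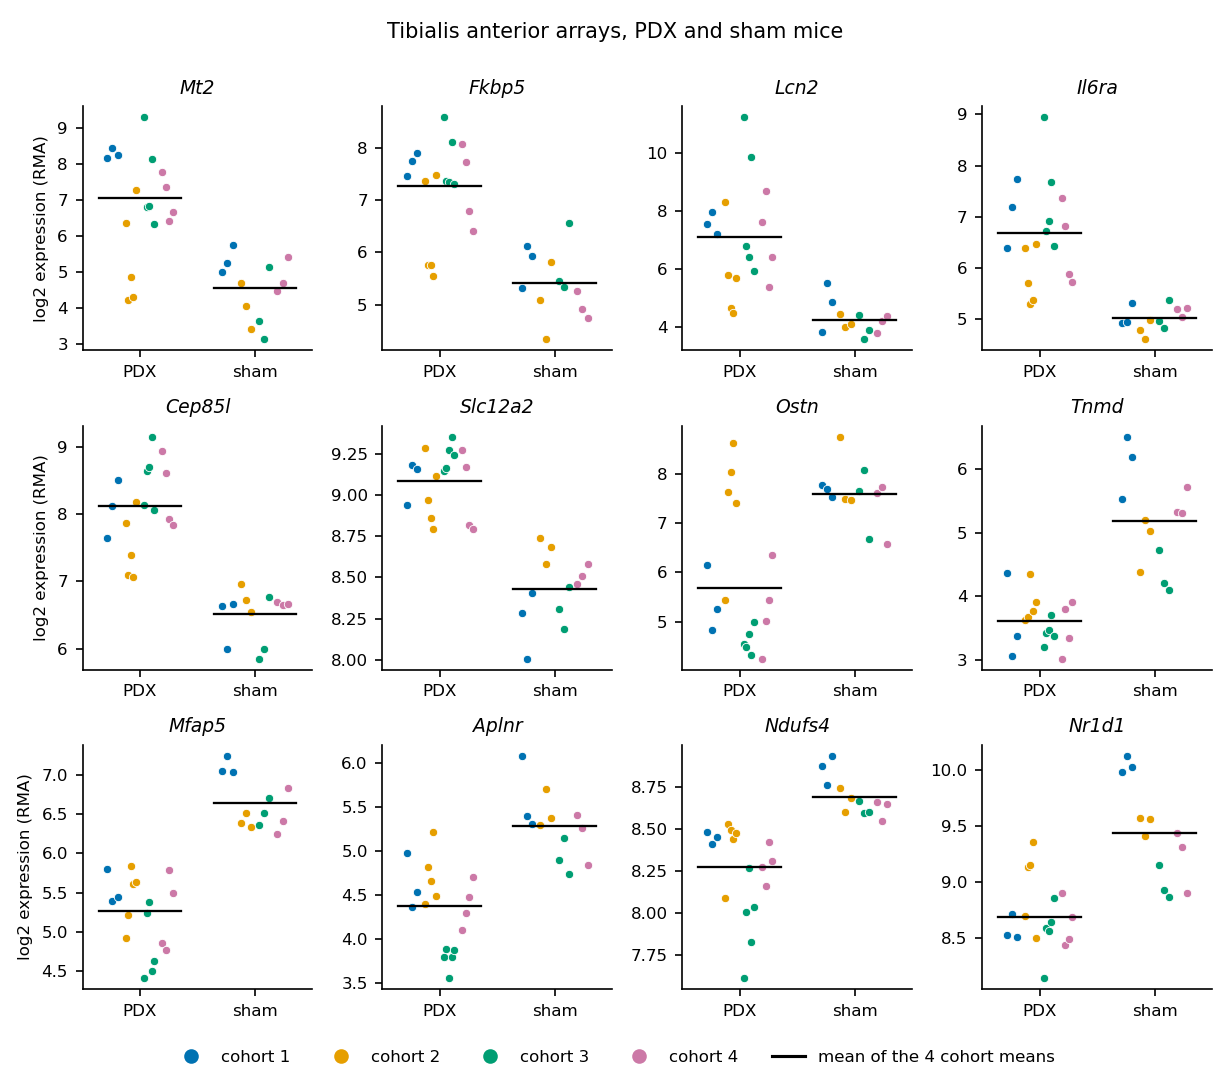
Log2 level (RMA) of 12 genes on each of the 17 PDX and 12 sham arrays, 1 point per array, coloured by cohort, with a bar at the mean of the 4 cohort means. Cep85l and Slc12a2 were higher and Mfap5 and Ndufs4 lower on every PDX array than on any sham array, while the PDX arrays of cohort 2 reached into the sham range for Mt2, Fkbp5 and Ostn.

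Of 31 acute-phase and STAT3 genes, a list that includes their cytokine receptors, 11 rose (6 to 10), 0 fell and 20 did not pass, with a median of 0.447. Lcn2, the iron-trapping acute-phase protein lipocalin 2, measured 4.47, 6.80 and 11.25 at its lowest, median and highest in PDX, against 3.56, 4.14 and 5.51 in sham muscle. Within each cohort every PDX array was above every sham array, although 3 PDX arrays did not exceed the highest sham array of the study. Lcn2 rose by 2.87 (7.30-fold, SE 0.47, adjusted p = 0.000109), the largest increase of all genes tested. Il6ra, the interleukin 6 receptor, ran from 5.28 to 8.95 with a median of 6.47 in PDX and from 4.60 to 5.38 with a median of 4.96 in sham muscle. Here too the PDX arrays were above their own sham arrays in 4 of 4 cohorts, and the difference was 1.67 (3.19-fold, SE 0.22, adjusted p = 5.98e-06).

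Osmr, the receptor of oncostatin M, another interleukin 6 family cytokine, rose by 0.90 (1.87-fold, SE 0.12, adjusted p = 1.32e-05), again without overlap in any cohort. Csf2rb2, a beta chain receptor of interleukin 3, measured 4.73, 5.30 and 5.97 at its lowest, median and highest in PDX, against 3.39, 4.26 and 4.49 in sham muscle. None of its 17 PDX arrays reached down to a sham array, and it rose by 1.17 (SE 0.12, adjusted p = 2.84e-07). Its near copy Csf2rb rose by 1.20 (SE 0.19, adjusted p = 8.84e-05), though probes of such near copies can share signal. Cebpd, a transcription factor of the acute phase, rose by 1.64 (SE 0.22, adjusted p = 1.14e-05), with cohort differences of 2.42, 0.41, 2.62 and 1.11. Serpina3n, a protease inhibitor, had PDX levels from 4.78 to 11.07 against 4.21 to 5.86 in sham muscle and rose by 2.01 (SE 0.40, adjusted p = 0.000906). The feedback inhibitor Socs3 rose by 0.82 (adjusted p = 0.0325), a call that was lost when some cohorts or single arrays were left out.

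Markers of neutrophils, which also make lipocalin 2, were near the background. Of 20 neutrophil genes, 5 rose (3 to 6) and 0 fell, and 1 of the 5 was Lcn2 itself. S100a9, a calprotectin chain, averaged 3.68 in PDX and 2.84 in sham muscle and rose by 0.84 (SE 0.14, adjusted p = 0.000114). S100a8, its partner chain, averaged 1.94 in PDX and 1.61 in sham muscle. Its call was lost in 4 alternative fits, among them those without cohort 3 or cohort 4, and in 2 that left out 1 array. Ly6g, the defining surface marker, averaged 2.10 in PDX and 2.18 in sham muscle and did not pass (adjusted p = 0.739). The mean of 5 neutrophil markers ran from 2.45 to 3.48 over the PDX arrays and from 2.35 to 2.78 over the sham arrays, and 4 of the 5 were below the median of all probe sets in both groups. Their part in the acute-phase result was not tested.

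Genes of the insulin and IGF pathway moved in both directions. Of 26 measured, 8 rose (5 to 8) and 6 fell (4 to 6). Among secreted binding proteins, Igfbp3 rose by 1.26 (2.39-fold, SE 0.19, adjusted p = 3.81e-05), while Igfbp5 and Igfbp6 fell by 1.08 (SE 0.19, adjusted p = 0.000203) and 0.97 (SE 0.15, adjusted p = 3.81e-05). Irs1, the main docking protein of the insulin receptor in muscle, averaged 6.90 in PDX and 7.80 in sham muscle and fell by 0.90 (SE 0.17, adjusted p = 0.000442). Its cohort differences were -0.98, -0.12, -1.60 and -0.92, so cohort 2 hardly moved. Grb14, an adaptor that inhibits the insulin receptor, also fell, to 4.46, 5.52 and 6.33 at its lowest, median and highest in PDX, against 6.22, 6.44 and 6.97 in sham muscle. It was lower than sham within each of the 4 cohorts (log2 -0.86, 0.551-fold, SE 0.11, adjusted p = 4.92e-06). Igf1, the growth factor itself, fell by 0.40 (adjusted p = 0.00613), a call lost in 4 alternative fits, among them that without cohort 3.

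Of 22 genes around mTORC1 and translation, 10 rose (6 to 9) and 0 fell, with a median of 0.202. Besides Ddit4, the translation repressor Eif4ebp1 measured 6.36, 8.16 and 9.59 at its lowest, median and highest in PDX, against 6.25, 6.55 and 6.93 in sham muscle. One PDX array lay inside the sham range and 16 lay above it. Eif4ebp1 rose 2.59-fold (log2 1.38, SE 0.18, adjusted p = 6.06e-06). The list also held rises of activators, Rheb by 0.30 and Mtor by 0.27, and both are activators of this pathway, not brakes. Eif3f, an initiation factor subunit, rose by 0.34 (SE 0.05, adjusted p = 6.18e-05).

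Of 26 FoxO targets and genes of cell stress measured, 11 rose (5 to 10) and 3 fell (2 to 3). Foxo1, which encodes one of the FoxO factors themselves, averaged 6.87 in PDX and 6.09 in sham muscle and rose by 0.79 (SE 0.15, adjusted p = 0.000544). Depp1, a direct FoxO target, had lowest, median and highest levels of 5.74, 7.41 and 9.52 in PDX, against 5.02, 5.84 and 6.85 in sham muscle. Its PDX arrays were above sham in cohorts 1, 3 and 4 and overlapped in cohort 2, and it rose by 1.49 (2.8-fold, SE 0.22, adjusted p = 2.77e-05). Gadd45a, a stress gene known to promote fibre atrophy in mice, rose by 1.09 (SE 0.22, adjusted p = 0.00116). Trp53inp2, an autophagy cofactor, went the other way and fell by 0.90 (0.534-fold, SE 0.13, adjusted p = 1.51e-05).

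In amino acid metabolism, 7 of 24 response and transport genes rose (6 to 7) and 3 fell (2 to 3). Slc7a2, a carrier of arginine and lysine, ran from 6.22 to 8.41 with a median of 7.29 in PDX and from 5.43 to 6.58 with a median of 6.23 in sham muscle. It rose by 1.23 (2.34-fold, SE 0.17, adjusted p = 1.68e-05), with 2 cohorts free of overlap. Glul, glutamine synthetase, rose by 0.81 (SE 0.10, adjusted p = 1.76e-06), Prodh, which starts proline breakdown, by 0.92 (SE 0.10, adjusted p = 4.23e-07), and the alanine aminotransferase Gpt2 by 0.53 (SE 0.07, adjusted p = 2.02e-05). Mthfd2, a mitochondrial folate enzyme, fell by 0.51 (SE 0.08, adjusted p = 4.04e-05). Breakdown of branched-chain amino acids showed 3 higher (1 to 4) and 1 lower (0 to 1) of 23, and 7 were higher without PDX replicate 1 of cohort 3. Polyamine genes had 1 higher and 1 lower of 15, with Azin1, which protects ornithine decarboxylase, down by 0.54 (adjusted p = 0.000886).

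Clock genes moved both ways. The molecular clock is a feedback loop in which CLOCK and BMAL1 switch on the Per and Cry genes, whose proteins repress them, and Nr1d1 represses the BMAL1 gene. Of 21 clock genes, 7 rose (6 to 7) and 4 fell (1 to 3, and 2 without PDX replicate 3 of cohort 1, sham replicate 2 of cohort 1 or sham replicate 3 of cohort 3). Per1 measured 8.27, 8.81 and 9.14 at its lowest, median and highest in PDX, against 6.44, 8.19 and 8.76 in sham muscle, and rose by 0.82 (SE 0.11, adjusted p = 5.21e-06). Its largest difference was in cohort 3 (cohort differences of 0.90, 0.36, 1.81 and 0.22). Cry2 rose by 0.92 (SE 0.15, adjusted p = 0.000117), Per2 by 0.53 (SE 0.09, adjusted p = 9.81e-05) and Nfil3, a repressor of clock output, by 0.95 (SE 0.19, adjusted p = 0.000983). Nr1d1 had lowest, median and highest levels of 8.15, 8.64 and 9.36 in PDX, against 8.87, 9.43 and 10.12 in sham muscle. It was below sham within every cohort and fell by 0.75 (0.593-fold, SE 0.09, adjusted p = 1.23e-06). Dbp, an output gene of the clock, fell by 0.76 (adjusted p = 0.0055), a call lost in 3 alternative fits, among them that without cohort 1. The hour of dissection was not among the labels, and its part in these values was not tested.

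The regulatory particle of the proteasome unfolds tagged proteins and feeds them to the core. Of its 17 subunits measured, 11 rose (5 to 10) and 0 fell, with a median of 0.238 and a lowest member at 0.114. The 17 core and assembly genes had 3 higher (2 to 3) and 1 lower (0 to 1), with a median of 0.0446. Psmd8, a lid subunit, measured 8.06, 8.73 and 9.24 at its lowest, median and highest in PDX, against 7.89, 8.13 and 8.27 in sham muscle. It overlapped sham in cohort 2 alone and rose by 0.52 (1.43-fold, SE 0.09, adjusted p = 0.000178). Psmd4, a receptor for ubiquitin chains, rose by 0.51 (SE 0.09, adjusted p = 0.000266), and the core subunit Psma7 by 0.49 (SE 0.11, adjusted p = 0.00267).

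Autophagy and lysosome genes followed with 10 of 34 higher (6 to 10) and 2 lower (1 in each fit). The lysosomal protease Ctsl rose by 0.83 (1.78-fold, SE 0.15, adjusted p = 0.000358), Map1lc3b, whose protein coats autophagosomes, by 0.46 (SE 0.10, adjusted p = 0.00239), and the cargo receptor Sqstm1 by 0.38 (SE 0.07, adjusted p = 0.000574). Of 32 ubiquitin ligases and adaptors other than Fbxo32 and Trim63, 9 were higher (3 to 7) and 5 lower (1 to 5, and 3 without any 1 of 9 single arrays). Cblb, which marks IRS1 for breakdown, rose by 0.51 (SE 0.11, adjusted p = 0.00206) and Fbxo31, a partner of the SCF ligase, by 0.49 (SE 0.10, adjusted p = 0.00196).

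Heat shock proteins and co-chaperones fell in 10 of 26 cases (3 to 10, with 3 without cohort 1) and 1 rose (0 to 1). Hspb2, a small heat shock protein of muscle, measured 5.20, 6.23 and 6.78 at its lowest, median and highest in PDX, against 6.55, 6.65 and 6.94 in sham muscle. Only 2 PDX arrays reached the sham range, yet cohorts 2 and 4 overlapped within themselves. Hspb2 fell by 0.55 (SE 0.09, adjusted p = 8.13e-05) and Dnaja4, a co-chaperone of HSP70, by 0.65 (SE 0.11, adjusted p = 0.000136).

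**Figure D3:**
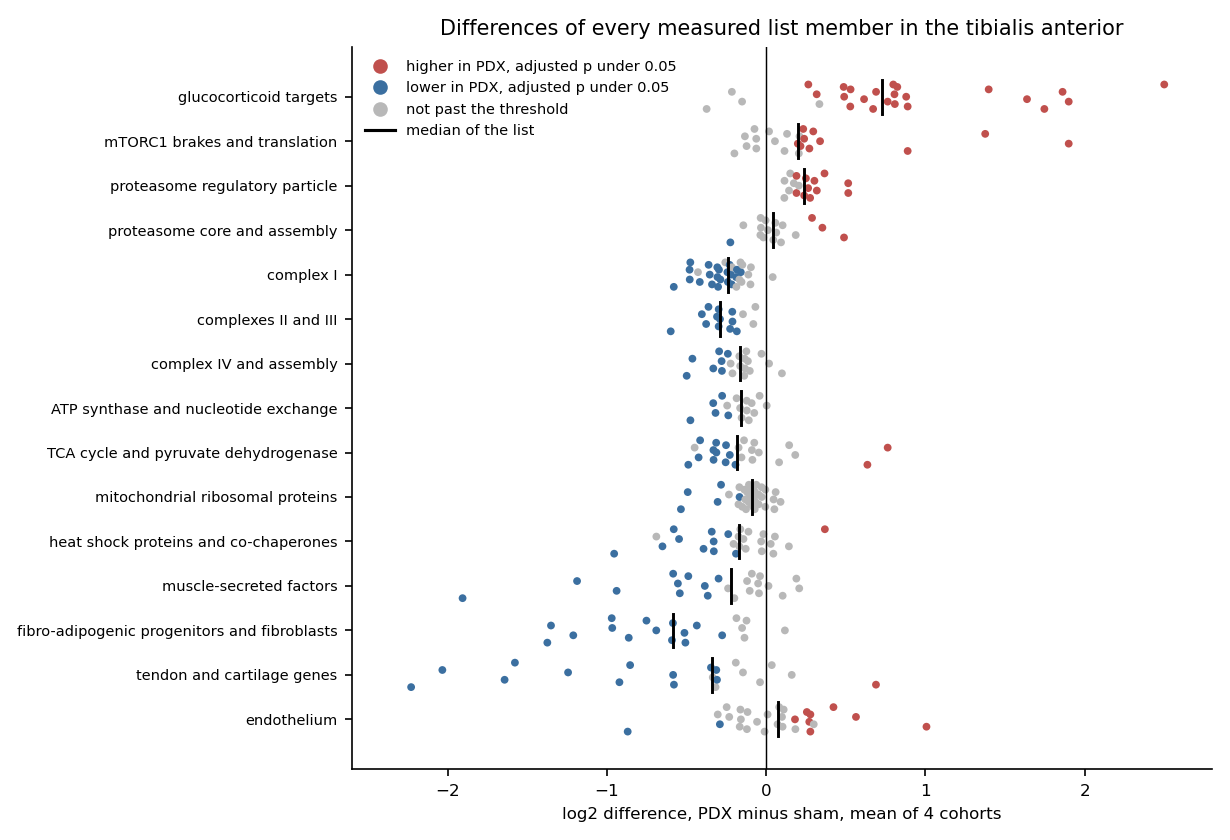
Log2 difference, PDX minus sham averaged over 4 cohorts, of every measured member of 15 lists, 1 point per gene, coloured by limma's test, with a bar at the median of the list. All 17 subunits of the proteasome regulatory particle lay above 0, and 0 members of complexes I to IV rose.

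The respiratory chain's complexes I to IV pass electrons to oxygen and complex V, ATP synthase, makes ATP from the resulting gradient. Of 33 complex I genes, 21 fell (9 to 20, fewest without cohort 1) and 0 rose, with a median of -0.241. Complexes II and III had 12 of 15 lower (7 to 11) with a median of -0.290, complex IV 7 of 20 (3 to 8) with -0.166, and ATP synthase and nucleotide exchange 5 of 16 (2 to 5) with -0.159. None of these members rose in limma's test. With the cohort as the replicate 6 complex I genes and 2 of complexes II and III passed.

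Ndufs4, an accessory subunit of complex I, measured 7.62, 8.31 and 8.53 at its lowest, median and highest in PDX, against 8.55, 8.66 and 8.93 in sham muscle. The 2 groups did not overlap. It fell by 0.42 (0.749-fold, SE 0.06, adjusted p = 2.81e-05). Ndufab1, the mitochondrial acyl carrier protein of complex I, and Bcs1l, a chaperone that completes complex III, fell by 0.58 (SE 0.10, adjusted p = 0.000175) and 0.60 (SE 0.09, adjusted p = 2.94e-05). Cox7a1, the muscle form of a complex IV subunit, fell by 0.46 (SE 0.07, adjusted p = 1.90e-05), and Ckmt2, mitochondrial creatine kinase, by 0.48 (SE 0.08, adjusted p = 0.000109). These falls were small, between 0.66-fold and 0.749-fold for the genes named here.

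In the TCA cycle and pyruvate dehydrogenase, 11 of 24 genes fell (7 to 10) and 2 rose (1 to 2, and 4 without PDX replicate 1 of cohort 3). Dlst, a subunit of oxoglutarate dehydrogenase, fell in every cohort without overlap (log2 -0.33, SE 0.05, adjusted p = 7.34e-05), and the pyruvate dehydrogenase genes Dlat and Pdhb fell by 0.49 and 0.42. Idh2, the NADP-linked mitochondrial isocitrate dehydrogenase, ran against the list. It measured 8.40, 9.11 and 9.81 at its lowest, median and highest in PDX, against 8.23, 8.45 and 8.66 in sham muscle. It rose by 0.64 (1.55-fold, SE 0.08, adjusted p = 5.45e-06), with 15 of 17 PDX arrays above all sham arrays. Mitochondrial ribosomal proteins had 5 of 36 lower (3 to 5) and import, cristae and dynamics genes 5 of 27 (2 to 5). Mtfp1, which promotes fission, fell by 0.62 (SE 0.07, adjusted p = 9.84e-07) and Mrpl12 by 0.54 (SE 0.07, adjusted p = 6.00e-06). Ppargc1a, the main coactivator of mitochondrial genes, had means of 8.25 in PDX and 8.47 in sham muscle and did not pass (log2 -0.23, SE 0.20, adjusted p = 0.561), and its sign turned without cohort 3 (0.0528). Esrra, its nuclear receptor partner, fell by 0.29 (adjusted p = 0.00581).

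Lipid genes moved both ways. Of 37 genes of fatty acid uptake, storage and oxidation, 8 rose (4 to 8) and 12 fell (6 to 11). Plin4, a coat protein of lipid droplets, measured 7.90, 8.78 and 9.71 at its lowest, median and highest in PDX, against 7.17, 7.80 and 8.12 in sham muscle. It was above sham within each cohort and rose by 0.97 (1.97-fold, SE 0.12, adjusted p = 2.07e-06). Pnpla2, the lipase that opens triglyceride stores, rose by 0.46 (SE 0.09, adjusted p = 0.000508). Mgll, which finishes that breakdown, and Acaa2, the last enzyme of beta oxidation, fell by 0.43 and 0.40. Of 24 sterol genes, 4 rose (3 to 4) and 7 fell (3 to 5). Without PDX replicate 2 of cohort 1, 5 fatty acid genes were higher and 4 sterol genes lower. Abca1, the cholesterol exporter, rose by 0.71 (1.64-fold, SE 0.08, adjusted p = 1.08e-06), while the synthesis genes Dhcr7 and Hmgcs1 fell by 0.67 (SE 0.11, adjusted p = 0.000149) and 0.43 (SE 0.08, adjusted p = 0.000682).

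Glycolysis and glycogen genes had 3 higher (2 to 4, and 5 without PDX replicate 1 of cohort 3) and 7 lower (0 to 5, with 0 without cohort 1) of 28. Fbp2, the muscle fructose bisphosphatase, rose by 0.79 (SE 0.13, adjusted p = 0.000136). Pfkfb3, which makes an activator of glycolysis, rose by 0.83 (adjusted p = 0.0413) with cohort differences of -0.38, 0.76, 2.78 and 0.15, and lost its call when cohort 3 or any of several single arrays was left out. Nmrk2, a kinase that makes NAD from nicotinamide riboside, fell by 1.49 (0.356-fold, SE 0.28, adjusted p = 0.000575), although 8 PDX arrays lay within the sham range. Sirt1, an NAD-dependent deacetylase, rose by 0.44 and its mitochondrial relative Sirt3 fell by 0.43.

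Tfrc, the transferrin receptor through which cells take up iron, measured 4.06, 5.91 and 7.24 at its lowest, median and highest in PDX, against 6.62, 7.27 and 8.76 in sham muscle. Only 2 PDX arrays reached the sham range. Tfrc fell by 1.51 (0.351-fold, SE 0.18, adjusted p = 2.85e-06). The iron exporter Slc40a1, ferroportin, rose by 0.65 (SE 0.08, adjusted p = 5.24e-06), and Steap3, a ferrireductase, fell by 0.56 (SE 0.10, adjusted p = 0.000321). Of 23 iron genes, 5 rose (3 to 6) and 4 fell (2 to 4). Of 29 oxidative stress and metal genes, 8 rose (6 to 10) and 2 fell (1 in each fit), including the glutathione gene Gclm (0.85, SE 0.16, adjusted p = 0.000527) and Gpx3 (0.58, SE 0.09, adjusted p = 0.000115). Hmox1, which degrades haem, rose by 1.30 (adjusted p = 0.0115), lost without cohort 1. Of 8 erythroid genes, 4 rose, among them Hbb-b1 (1.24), 1 fell, which was Tfrc, and 0 rose without cohort 1. Hbb-b1 had cohort differences of 2.16, 1.58, 1.12 and 0.10, and blood in the sample was not tested as a part of these values.

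Of 20 fast sarcomere genes, 3 rose (1 to 3) and 4 fell (1 to 3). Myh2, the myosin of fast oxidative fibres, was the exception in size. It measured 7.29, 8.67 and 10.04 at its lowest, median and highest in PDX, against 9.16, 9.92 and 10.76 in sham muscle. The 3 lowest arrays were those of cohort 1, and cohort 4 overlapped its sham arrays. Myh2 fell by 1.49 (0.355-fold, SE 0.18, adjusted p = 2.84e-06), with cohort differences of -2.94, -1.25, -1.07 and -0.71. Myh1, the myosin of intermediate fast fibres, had a difference of -0.02 (SE 0.05, adjusted p = 0.885) at 11.34 in PDX and 11.36 in sham muscle, close to the top of the scale, and its sign turned under other scalings. Mylk2, the skeletal myosin light chain kinase, rose by 0.40 (SE 0.06, adjusted p = 2.77e-05).

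Around the sarcomere, Z-disc genes had 3 higher (1 to 3) and 8 lower (3 to 7) of 29, and slow sarcomere genes 1 higher (0 to 2) and 3 lower (0 to 3, and 1 without any 1 of 10 single arrays) of 19. Csrp3, a stretch-sensing Z-disc protein of slow fibres, fell by 1.15 (adjusted p = 0.00239), with -2.82 in cohort 1 and 0.33 in cohort 4. Its call was lost in 2 alternative fits, among them that without cohort 1. Lmcd1, a calcineurin cofactor, fell by 0.59 (SE 0.10, adjusted p = 0.000199). Calcium handling had 3 higher (1 to 2) and 7 lower (4 to 5) of 29. Differences in this list ran from -0.71 to 1.17, so its largest was a rise, and the slow sarcomere list also reached 1.17. Sypl2, mitsugumin 29, which shapes the transverse tubule junction, fell by 0.71 (SE 0.12, adjusted p = 0.000197), and Stac3, which couples voltage sensor to calcium release, by 0.51 (SE 0.11, adjusted p = 0.00289).

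At the membrane, 3 of 23 dystrophin complex and costamere genes rose (3 in each fit) and 7 fell (3 to 7). Sntb1, a syntrophin, rose by 0.69 (1.61-fold, SE 0.11, adjusted p = 0.00013) and the laminin receptor Itga7 by 0.42 (SE 0.07, adjusted p = 8.07e-05), while Lama2, the laminin chain it binds, fell by 0.54 (SE 0.09, adjusted p = 0.000178). No PDX array of Lama2 (5.23 to 6.68) reached a sham array (6.70 to 6.95). Of 24 denervation and neuromuscular junction genes, 3 rose (2 to 3) and 1 fell (0 to 1), with the acetylcholine receptor subunit Chrna1 up by 0.60 (SE 0.11, adjusted p = 0.000227). Satellite cell and myogenic genes had 2 higher (1 to 3) and 3 lower (2 to 4) of 26.

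Genes of connective tissue cells fell. Of 19 genes of fibro-adipogenic progenitors and fibroblasts, 14 fell (12 to 14) and 0 rose, with a median of -0.586. Mfap5, a glycoprotein of elastic microfibrils, measured 4.41, 5.38 and 5.84 at its lowest, median and highest in PDX, against 6.25, 6.52 and 7.24 in sham muscle. Dpt, dermatopontin, which organises collagen fibrils, measured 4.23, 6.33 and 6.88 in PDX, against 7.06, 7.40 and 7.84 in sham muscle. Neither gene had an overlap between the groups. They fell by 1.37 (0.386-fold, SE 0.12, adjusted p = 3.14e-08) and 1.35 (0.392-fold, SE 0.13, adjusted p = 6.93e-08). Pi16, a marker of fibroblast progenitors, fell by 0.97 (SE 0.10, adjusted p = 4.63e-07) and Fap, fibroblast activation protein, by 0.86 (SE 0.10, adjusted p = 2.19e-06). Cd34, found on progenitor, satellite and vascular cells, fell by 0.69 (SE 0.10, adjusted p = 3.54e-05).

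Tendon genes had 12 of 20 lower (8 to 12) and 1 higher (0 to 1). Kera, keratocan, a proteoglycan of tendon and cornea, measured 3.11, 3.58 and 5.43 at its lowest, median and highest in PDX, against 4.79, 5.69 and 7.53 in sham muscle. A single PDX array, in cohort 2, reached the sham range. Kera fell by 2.23 (0.213-fold, SE 0.19, adjusted p = 1.36e-08) from a level near the background in PDX. Tnmd, tenomodulin, a tendon cell marker, fell by 1.58 (SE 0.13, adjusted p = 1.98e-08), with cohort differences of -2.47, -1.0, -0.91 and -1.93. Scx, the transcription factor that defines tendon cells, averaged 5.24 in PDX and 5.38 in sham muscle and did not pass (log2 -0.15, adjusted p = 0.415). How much tendon each dissected sample held was not among the labels, and its part in the matrix results was not tested.

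Of 37 genes of proteoglycans, elastic fibres and matricellular proteins, 26 fell (22 to 26) and 0 rose, with a median of -0.566. The list shares Fmod, Tnc and Thbs4 with the tendon list, so tendon genes count in both. Sparc, a collagen-binding protein of many cell types, had PDX levels of 7.32 to 8.80 against 8.76 to 9.83 in sham muscle and fell by 1.09 (0.469-fold, SE 0.10, adjusted p = 7.76e-08). Fn1, fibronectin, fell by 1.33 (SE 0.16, adjusted p = 2.21e-06), with PDX below sham in each cohort. Of 29 collagen processing genes, 16 fell (9 to 16) and 1 rose (0 to 1), including Pcolce, which speeds removal of the collagen propeptide (log2 -1.14, SE 0.12, adjusted p = 3.53e-07), the crosslinking oxidase Loxl1 (-0.92, SE 0.13, adjusted p = 1.18e-05) and the collagen chaperone Serpinh1 (-0.78, SE 0.09, adjusted p = 2.47e-06).

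Basement membrane, the sheet around each fibre, had 12 of 18 genes lower (8 to 12) and 2 higher (1 to 2). Nid1, nidogen, which links laminin to type IV collagen, measured 5.69, 6.41 and 6.84 at its lowest, median and highest in PDX, against 6.87, 7.06 and 7.33 in sham muscle, again with no overlap. It fell by 0.74 (0.600-fold, SE 0.10, adjusted p = 8.18e-06). Hspg2, perlecan, fell by 0.74 (SE 0.07, adjusted p = 1.13e-07). Of 28 matrix proteases and inhibitors, 8 fell (7 to 10) and 1 rose (0 to 1). Mmp2, gelatinase A, ran from 5.28 to 6.52 with a median of 6.15 in PDX, and from 6.78 to 7.47 with a median of 7.03 in sham muscle, with no overlap. It fell by 0.90 (SE 0.11, adjusted p = 1.76e-06), alongside its inhibitor Timp2 (-0.53, SE 0.11, adjusted p = 0.00101).

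Factors that muscle secretes fell in 10 of 22 cases (6 to 10) and 0 rose. Ostn, the peptide musclin, measured 4.24, 5.26 and 8.64 at its lowest, median and highest in PDX, against 6.59, 7.63 and 8.76 in sham muscle. The 4 PDX arrays within the sham range were all of cohort 2. Ostn fell by 1.91 (0.267-fold, SE 0.26, adjusted p = 1.34e-05), with cohort differences of -2.25, -0.47, -2.85 and -2.05. Fndc5, the precursor of irisin, measured 6.84, 7.29 and 7.69 in PDX, against 7.70, 7.86 and 8.21 in sham muscle, and no arrays overlapped. It fell by 0.58 (0.667-fold, SE 0.07, adjusted p = 4.39e-06). Fstl1, a follistatin-like glycoprotein, fell by 0.94 (SE 0.09, adjusted p = 1.13e-07).

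TGF-beta, myostatin and BMP genes had 5 higher (2 to 5) and 7 lower (7 to 10) of 42, and 2 were higher without sham replicate 2 of cohort 2 or without PDX replicate 2 or 3 of cohort 1. Acvr1b, an activin receptor that myostatin also uses, rose by 0.82 (1.76-fold, SE 0.12, adjusted p = 2.74e-05). Mstn, myostatin, averaged 7.44 in PDX and 7.23 in sham muscle and did not pass (log2 0.21, SE 0.12, adjusted p = 0.304). Ltbp4, which binds latent TGF-beta in the matrix, and the BMP ligand Bmp5 fell by 0.84 (SE 0.11, adjusted p = 5.32e-06) and 0.76 (SE 0.12, adjusted p = 0.000102). In the Wnt, Notch and Hippo list 2 rose (1 to 3) and 7 fell (5 to 7) of 39. The Wnt receptor Fzd4 rose by 0.72 (SE 0.12, adjusted p = 0.000149), and the secreted Wnt inhibitors Frzb and Wif1 fell by 0.95 (SE 0.16, adjusted p = 0.000183) and 0.44 (SE 0.09, adjusted p = 0.00185).

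Blood vessel genes split. Of 28 endothelial genes, 8 rose (4 to 7) and 2 fell (2 to 3, and 5 without PDX replicate 1 of cohort 3). Selp, P-selectin, the adhesion molecule that catches leukocytes, measured 4.70, 5.32 and 7.76 at its lowest, median and highest in PDX, against 3.93, 4.51 and 4.72 in sham muscle. One PDX array was within the sham range, and Selp rose by 1.01 (2.01-fold, SE 0.19, adjusted p = 0.000686). Vwf, the clotting factor stored beside it, rose by 0.42 (SE 0.06, adjusted p = 4.59e-05). Kdr, the main receptor of VEGF-A, fell by 0.87 (0.547-fold, SE 0.15, adjusted p = 0.000154) and Aplnr, the apelin receptor, by 0.91 (0.533-fold, SE 0.10, adjusted p = 5.61e-07), and Aplnr was below sham in each cohort. Vegfd, a ligand of lymphatic growth, rose by 1.00 (SE 0.15, adjusted p = 3.16e-05). The mean of 4 endothelial markers ran from 6.6 to 7.29 over PDX and from 6.90 to 7.22 over sham arrays.

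Macrophage and monocyte genes had 1 higher (0 to 2) and 4 lower (2 to 5) of 23, with Folr2, a receptor of resident macrophages, down by 0.65 (SE 0.10, adjusted p = 8.06e-05). The highest difference in this list was 0.337. Lgals3, galectin 3, which macrophages and stressed fibres make, is not in the list and rose by 0.65 (1.57-fold, SE 0.07, adjusted p = 2.87e-07). Complement had 1 higher (0 to 1) and 4 lower (2 to 4) of 17, interferon-stimulated genes 1 higher (0 to 1) and 2 lower (0 to 4) of 27, and antigen presentation 3 lower (2 to 5) of 18. Of the mast cell genes, Cpa3, a granule protease, fell by 1.04 (SE 0.19, adjusted p = 0.00042) with cohort differences between -1.13 and -0.93.

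Ighm, the immunoglobulin mu heavy chain, had the largest decrease of all genes tested. It measured 3.90, 5.03 and 8.76 at its lowest, median and highest in PDX, against 7.62, 8.60 and 9.22 in sham muscle. A single PDX array, replicate 4 of cohort 2, reached the sham range. Ighm fell by 3.08 (0.118-fold, SE 0.27, adjusted p = 3.14e-08), with cohort differences of -3.16, -1.41, -4.26 and -3.51. It was the 1 gene of 20 lymphocyte and plasma cell genes that passed. The B lineage markers Cd79a, Cd79b, Ms4a1 and Jchain were below the median of all probe sets in both groups, and their mean ran from 2.13 to 2.70 over PDX and from 2.27 to 2.54 over sham arrays.

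Of 27 splicing and RNA-binding genes, 8 rose (7 to 8), 1 fell (0 to 1) and 18 did not pass, and 3 were higher with the cohort as the replicate. Srsf5, a splicing factor, rose by 0.75 (1.68-fold, SE 0.09, adjusted p = 1.18e-06), Clk1, a kinase of such factors, by 0.54 (SE 0.08, adjusted p = 5.47e-05), and Cirbp, a cold-induced RNA-binding protein, by 0.89 (SE 0.11, adjusted p = 2.84e-06). Cytosolic ribosomal proteins had 5 higher (2 to 5) and 0 lower of 31. Of these Rpl6 had the largest difference, at 4.97 in PDX and 3.84 in sham muscle on average (log2 1.13, SE 0.17, adjusted p = 3.16e-05). Its sham level was close to the median of all probe sets, 3.77, and the median difference of the list was 0.0564. Rpl4 rose by 0.26 (SE 0.05, adjusted p = 0.000704), a call lost in 2 alternative fits, among them that without cohort 1. Cell cycle genes had 0 higher and 3 lower (2 to 4) of 34, among them the cyclins Ccnd2 and Ccnd1, which fell by 0.91 (SE 0.14, adjusted p = 4.04e-05) and 0.66 (SE 0.09, adjusted p = 2.34e-05). Of 25 Hox genes, which keep positional identity, and of 22 hepatocyte and pancreatic acinar genes limma called 0, also at an unadjusted p under 0.05.

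On all 17 PDX arrays 9 genes were higher than on all 12 sham arrays (0.0388% of genes tested) and 9 were lower (0.0388%). The higher ones were Cep85l, Csf2rb2, Eif4g3, Grina, Pcgf5, Rsbn1, Slc12a2, Smyd2 and the small nucleolar RNA Snora74a. The lower ones were Adgrd1, Dpt, Fndc5, Lama2, Mfap5, Mmp2, Ndufs4, Nid1 and Tspan12. Eif4g3, Grina, Pcgf5, Rsbn1, Smyd2, Snora74a, Adgrd1 and Tspan12 are named only because of this count, after their values were seen. Within each cohort separately, 50 genes (0.216%) were above and 73 (0.315%) below sham without overlap.

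Cep85l, a centrosomal protein, measured 7.07, 8.13 and 9.16 at its lowest, median and highest in PDX, against 5.85, 6.66 and 6.96 in sham muscle, and rose by 1.61 (3.05-fold, SE 0.15, adjusted p = 6.38e-08). Slc12a2, a sodium, potassium and chloride cotransporter, measured 8.80, 9.16 and 9.36 in PDX, against 8.01, 8.45 and 8.74 in sham muscle, and rose by 0.66 (1.58-fold, SE 0.07, adjusted p = 1.31e-07). Tspan12, a tetraspanin that works with Fzd4, fell to 5.75, 7.30 and 7.82 in PDX, against 7.83, 8.22 and 8.74 in sham muscle (log2 -1.01, SE 0.11, adjusted p = 5.37e-07). The gap between the groups was narrow in each: 7.82 against 7.83 for Tspan12 and 7.07 against 6.96 for Cep85l. Eif4g3, a translation scaffold, and Smyd2, a lysine methyltransferase, rose by 0.42 (SE 0.05, adjusted p = 3.96e-06) and 0.49 (SE 0.07, adjusted p = 1.36e-05).

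Genes with large decreases but a small overlap included Cyfip2, an actin regulator of the WAVE complex, which fell by 1.59 (0.332-fold, SE 0.18, adjusted p = 6.89e-07), with cohort differences of -1.67, -1.36, -1.87 and -1.47, and Map2k6, a kinase that activates p38, which fell by 1.22 (0.430-fold, SE 0.16, adjusted p = 5.77e-06). Malt1, a scaffold protease of NF-kB signalling, rose by 1.08 (2.12-fold, SE 0.12, adjusted p = 5.37e-07), above sham in each cohort.

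The 4 cohorts, each with its own donor tumour, had unequal median differences over the called genes. The donor tumour cannot be told apart from other differences between the cohorts. Over the 2979 genes, the median cohort difference of the higher genes was 0.387, 0.168, 0.435 and 0.291 in cohorts 1 to 4, and that of the lower genes -0.417, -0.199, -0.494 and -0.294. Cohort 2 had the smallest of the 4 differences for 1805 of these genes and cohort 3 the largest for 1559. The sign of the average was shared by 2958 genes in cohort 1 (99.3%), 2773 in cohort 2 (93.1%), 2948 in cohort 3 (99.0%) and 2890 in cohort 4 (97.0%), which is partly fixed since each cohort enters the average. A moderated F test of equal effects called 3 genes (0.0129%), with 1700 at an unadjusted p under 0.05, and 6 without PDX replicate 1 of cohort 3. Of the 29 fits that each left out 1 array, 19 called 0 genes.

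Slc25a25, a calcium-regulated carrier of ATP and magnesium across the mitochondrial membrane, was called by the F test (adjusted p = 0.0451). It measured 6.34, 7.27 and 8.14 at its lowest, median and highest in PDX, against 5.54, 6.64 and 7.72 in sham muscle. PDX was above sham without overlap in cohorts 2 and 3 and overlapped in cohorts 1 and 4, with differences of -0.20, 0.63, 1.69 and -0.13. Its averaged difference of 0.50 was not called in 4 alternative fits, among them that without cohort 3. Igkv5-43, an immunoglobulin light chain segment near the background (1.28 in PDX, 1.24 in sham muscle), also passed, as did the microRNA gene Mir1192, and both are named after their values were seen.

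**Figure D4:**
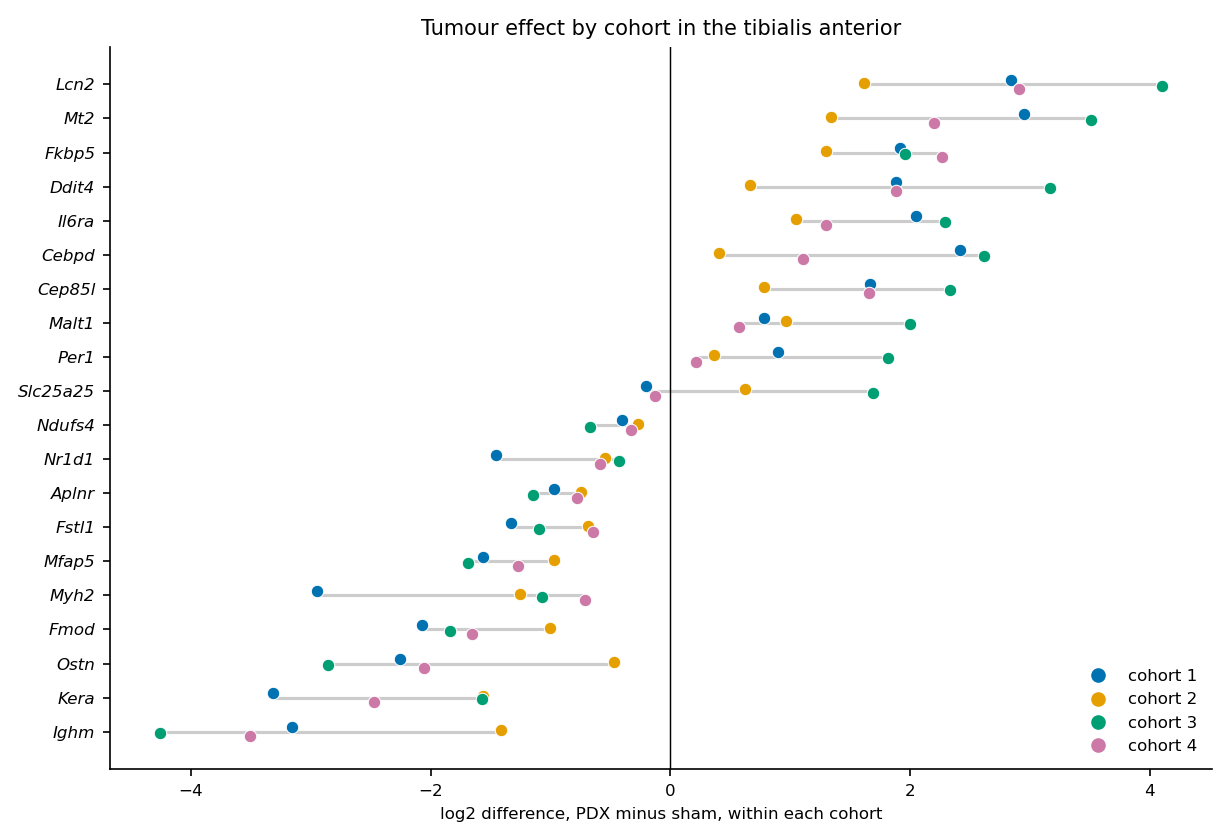
Log2 difference, PDX minus sham, within each of the 4 cohorts for 20 genes, 1 point per cohort. Cohort 2 gave the smallest difference for Lcn2, Mt2, Ostn and Ighm, while Slc25a25 was above 0 in cohorts 2 and 3 and below 0 in cohorts 1 and 4.

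Whether the limb muscle differed from the diaphragm was tested gene by gene on all 58 arrays, as the tumour effect in the tibialis anterior minus that in the diaphragm. The labels do not state whether same-numbered arrays of both muscles came from the same mouse, and the fit took all arrays as independent. Limma called 1468 genes (6.33%), 619 with a higher effect in the tibialis anterior (2.67%) and 849 with a lower one (3.66%), and 800 and 668 after centring each array on its median. Of the 2979 genes called in the tibialis anterior, 720 had a called difference between the muscles, 833 also passed in the diaphragm with the same sign and 124 with the opposite sign, where 2892 of all genes passed in the diaphragm (12.5%). Without PDX replicate 1 of cohort 3 of the tibialis anterior the 2 counts were 799 and 932, and without cohort 1 they were 165 and 366.

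Matrix genes had the largest opposite effects. Postn, periostin, a matricellular protein, fell by 1.18 in the tibialis anterior and rose by 0.94 in the diaphragm, a difference of -2.12 (SE 0.23, adjusted p = 1.66e-08). Sfrp4, a secreted Wnt antagonist, had -1.19 in the tibialis anterior and 1.19 in the diaphragm (difference -2.37, SE 0.29, adjusted p = 2.64e-07), and Thbs4, thrombospondin 4, -1.24 and 0.71 (difference -1.95, SE 0.24, adjusted p = 2.16e-07). Of 37 proteoglycan and matricellular genes, 26 had a lower effect in the tibialis anterior and 0 a higher one, with medians of -0.566 in the tibialis anterior and 0.221 in the diaphragm. For fibroblast genes the count was 13 of 19 lower and 0 higher, with medians of -0.586 in the tibialis anterior and 0.171 in the diaphragm.

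The macrophage list had 14 of 23 genes with a lower effect in the tibialis anterior and 0 with a higher one, with medians of -0.0633 in the tibialis anterior and 0.718 in the diaphragm. C1qb, a complement chain of macrophages, had -0.38 in the tibialis anterior and a difference from the diaphragm of -1.30 (SE 0.17, adjusted p = 5.04e-07). Myh2 had -1.49 in the tibialis anterior and -0.09 in the diaphragm (difference -1.41, SE 0.21, adjusted p = 8.47e-06), and Ighm fell by 2.01 more in the limb muscle (SE 0.37, adjusted p = 0.000238).

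Among genes that were higher in the limb muscle, 8 of 26 glucocorticoid targets had a higher effect in the tibialis anterior and 0 a lower one, with medians of 0.726 in the tibialis anterior and 0.225 in the diaphragm. Mt2 and Fkbp5 rose in both muscles, by 1.91 and 1.53 in the diaphragm, and their differences between the muscles were not called (0.59, SE 0.42, adjusted p = 0.506, and 0.34, SE 0.32, adjusted p = 0.662). Depp1 had an effect of 1.49 in the tibialis anterior and 0.05 in the diaphragm (difference 1.44, SE 0.27, adjusted p = 0.000345), Igfbp3 1.26 and 0.10 (difference 1.15, SE 0.22, adjusted p = 0.000444) and Idh2 0.64 and -0.24 (difference 0.87, SE 0.13, adjusted p = 8.47e-06). Proteasome regulatory subunits had a higher effect in the tibialis anterior in 7 of 17 cases and a lower one in 0, with a median of 0.238 in the tibialis anterior and -0.0174 in the diaphragm.

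In limma's test 0 of 33 complex I genes and 0 of 15 genes of complexes II and III had a called difference between the muscles, with 1 and 2 at an unadjusted p under 0.05 and with medians of -0.241 and -0.290 in the tibialis anterior and -0.324 and -0.305 in the diaphragm. Ndufs4 had -0.42 in the tibialis anterior and -0.36 in the diaphragm (difference -0.06, SE 0.11, adjusted p = 0.86). Osmr, Cyfip2 and Grb14 had 0.90, -1.59 and -0.86 in the tibialis anterior, against 1.20, -1.40 and -1.19 in the diaphragm, and none of their differences between muscles passed (adjusted p = 0.404, 0.778 and 0.248).

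**Figure D5:**
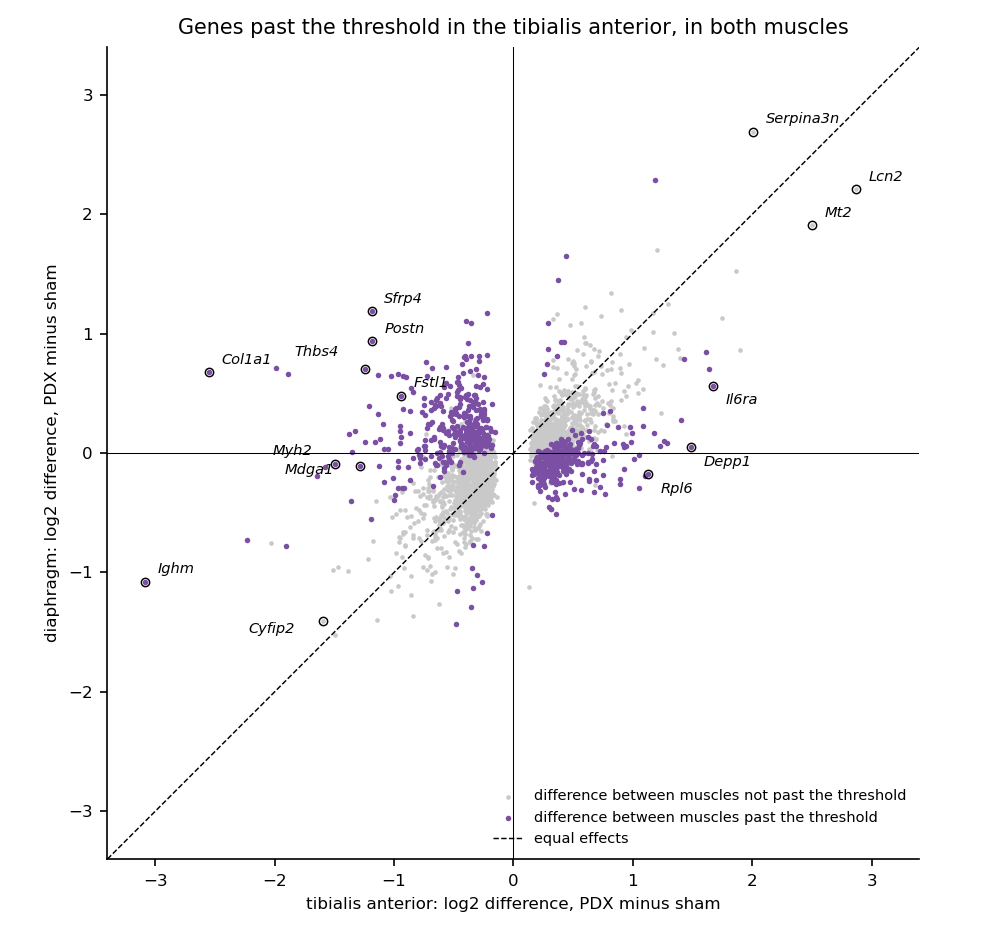
Log2 difference, PDX minus sham, in the tibialis anterior (horizontal) and the diaphragm (vertical) for the 2979 genes called in the tibialis anterior, 1 point per gene; purple points passed the test of the difference between the muscles and the dashed line marks equal effects. Col1a1, Postn, Sfrp4 and Thbs4 lie at the upper left, lower in the limb muscle and higher in the diaphragm, while Lcn2, Mt2 and Serpina3n lie at the upper right.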

How the data were processed

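RNA of whole muscle was measured on Affymetrix arrays. The deposited values are log2 signals made by the authors with RMA; the submitters' processing notes name affy 1.36.1 and, for the software environment, R 2.15.1. Of 25206 probe sets, 23185 carry 1 gene symbol and were tested. No array files were used, so the precision rests on the number of arrays.

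Limma 3.58.1 in R 4.3.3 (statmod 1.5.0) fitted 8 means, 1 per cohort and treatment, to the 29 tibialis anterior arrays. The tumour effect is the equally weighted average of the 4 cohort differences. A moderated F test compared the cohorts, and a fit of 16 means to all 58 arrays compared the muscles. P-values were adjusted by Benjamini-Hochberg over all 23185 genes at 0.05. The fits were tested on simulated data.

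Members and the 68 gene lists were chosen with earlier results of these data known. Named genes were taken by rule from 11099 eligible genes: those with the largest effects, with the smallest p-values, leading a list, or differing between muscles or cohorts. A few muscle identity genes were set beforehand. Genes named for their lack of overlap or for a promoter motif were added after their values were seen. Genes below the median of all probe sets in both groups were left out, apart from markers. Alternatives changed the cohort term, replicate unit, filter, scaling, variance model, array weights and samples. Same-numbered PDX and sham arrays correlated between -0.231 and 0.0925 in their deviations, with 0 of 12 pairs over 0.1, so the numbers were not taken as pairs. Scan dates were not used here.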

Additional observations from a re-analysis of the deposited data

Results flagged for a closer look

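Within the PDX groups of cohorts 2, 3 and 4, which have 5, 5 and 4 arrays, Dixon's test was run for the 167 genes with a fitted value that the results name, in 501 groups. In 32 groups 1 array stood apart from the others of its cohort, and chance flags about 1 in 20 groups. In cohort 2 the array with the highest level stood apart for Eif3f (replicate 1 at 8.54), Foxo1 (replicate 5 at 6.86), Grina (replicate 1 at 8.91), Per2 (replicate 3 at 6.15), Psma7 (replicate 1 at 8.59), Psmd4 (replicate 1 at 8.59), S100a8 (replicate 2 at 2.49), Smyd2 (replicate 1 at 9.78) and Snora74a (replicate 1 at 6.57). In cohort 2 the array with the lowest level stood apart for Ckmt2 (replicate 1 at 9.70), Ndufs4 (replicate 1 at 8.09) and Sntb1 (replicate 3 at 6.40). In cohort 3 the array with the highest level stood apart for Chrna1 (replicate 4 at 6.94), Pcgf5 (replicate 1 at 7.96), Pnpla2 (replicate 1 at 10.30), Selp (replicate 1 at 7.76), Serpinh1 (replicate 5 at 5.53) and Slc25a25 (replicate 1 at 8.14). In cohort 3 the array with the lowest level stood apart for Aplnr (replicate 3 at 3.55), Cirbp (replicate 4 at 6.05), Col1a1 (replicate 1 at 4.34), Fzd4 (replicate 5 at 7.19), Grb14 (replicate 1 at 4.46), Ighm (replicate 5 at 3.90), Kdr (replicate 1 at 5.46), Mtfp1 (replicate 1 at 5.81), Psmd4 (replicate 5 at 7.84) and Sirt3 (replicate 1 at 3.81). In cohort 4 the array with the highest level stood apart for Csf2rb2 (replicate 2 at 5.97). In cohort 4 the array with the lowest level stood apart for Igf1 (replicate 3 at 4.67), Pi16 (replicate 1 at 4.10) and Thbs4 (replicate 1 at 6.34). 

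The tumour effect differed between the muscles in limma's test for the following genes, given as the tibialis anterior effect minus the diaphragm effect on the log2 scale. It was higher in the tibialis anterior for Cebpd (0.93), Cep85l (0.76), Depp1 (1.44), Eif4g3 (0.32), Foxo1 (0.55), Glul (0.46), Gpt2 (0.62), Idh2 (0.87), Igfbp3 (1.15), Il6ra (1.11), Malt1 (0.85), Mylk2 (0.44), Pcgf5 (0.52), Pdk4 (1.1), Plin4 (0.76), Psmd8 (0.37), Pvalb (0.70), Rheb (0.44), Rpl6 (1.31), Rsbn1 (0.49), Selp (1.06), Sirt1 (0.42), Slc12a2 (0.66), Slc7a2 (1.17), Sqstm1 (0.33), Srsf5 (0.41) and Vegfd (0.83). It was lower in the tibialis anterior for Adgrd1 (-1.39), Azin1 (-0.49), C1qb (-1.30), Ccnd1 (-0.80), Ccnd2 (-0.62), Cd34 (-0.80), Col1a1 (-3.23), Dpt (-1.36), Fap (-1.03), Fn1 (-1.51), Folr2 (-1.05), Fstl1 (-1.42), Hspg2 (-0.80), Igfbp5 (-1.12), Igfbp6 (-0.90), Ighm (-2.01), Kdr (-0.64), Kera (-1.50), Lmcd1 (-0.64), Loxl1 (-1.29), Ltbp4 (-0.80), Mfap5 (-1.53), Mmp2 (-1.53), Mthfd2 (-0.56), Myh2 (-1.41), Nid1 (-0.76), Ostn (-1.13), Pcolce (-1.79), Pi16 (-1.63), Postn (-2.12), Serpinh1 (-0.70), Sfrp4 (-2.37), Sparc (-1.33), Steap3 (-0.47), Thbs4 (-1.95), Timp2 (-0.87), Tnmd (-1.46) and Tspan12 (-0.80).

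The effects of the 4 cohorts differed in the moderated F test for Slc25a25 and Igkv5-43 (adjusted p = 0.0451 for both, limma).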

How the results depend on the processing

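The counts of genes past the threshold depended most on cohort 1 and on the unit of replication. The effect called 515 higher and 607 lower genes with the cohort as the replicate and 678 and 748 without cohort 1. Cohort 1 had the fewest PDX arrays, 3. Without cohorts 2, 3 and 4 the counts were 1290 and 1344, 1110 and 1141, and 992 and 1112. The cause was not tested. Leaving out 1 array gave 1214 to 1691 higher and 1281 to 1671 lower genes, and 163 to 206 and 217 to 262 at 1.5-fold or more. The fit with the replicate number as a block called 1187 higher and 1050 lower genes (223 and 245 at 1.5-fold or more), and the numbers do not pair the samples. Centring the arrays on their medians gave 1544 higher and 1211 lower. The F test between cohorts called 0 genes after centring and 0 to 6 when 1 array was left out. The difference between the muscles called 165 higher and 366 lower genes without cohort 1, 326 and 379 without cohort 2, and 329 higher without cohort 4. It called 472 to 799 and 710 to 932 when 1 array was left out, and 800 and 668 after centring. With same-numbered arrays of both muscles as a block it called 632 and 859, and the correlation within blocks was 0.0101. The sign of Myh1 turned after centring (0.000676), with quantile normalization (0.0283) and without cohort 2 (0.0326), and that of Ppargc1a without cohort 3 (0.0528). Neither gene was called. The number of arrays limits the precision, and a probe set near the background carries little signal.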
